A study of Homo sapiens with 15 samples.

Results

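Cells under proteasome inhibition keep protein breakdown going through a small set of genes, and 13 of them are described here among the 57773 genes of the deposited count tables. They were chosen by name and role. NFE2L1, also called NRF1, is the transcription factor behind the rise of proteasome genes when the proteasome is blocked. DDI2 and NGLY1 are its activators. UBB and RPS27A encode ubiquitin. VCP, also called p97, was taken with its core cofactors NPLOC4, UFD1 and NSFL1C. RAD23B, UBQLN1, UBQLN2 and UBQLN4 are shuttle factors that carry ubiquitinated proteins to the proteasome. All 13 passed the filter on low counts, with 84 to 5476 reads per gene and library.

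As background, NRF1 is made as a membrane protein of the endoplasmic reticulum. The p97 ATPase pulls it out of the membrane, NGLY1 removes its sugars, and the protease DDI2 cuts it free so that it can reach the nucleus and switch on proteasome genes. Myeloma cells secrete large amounts of antibody protein and depend on their proteasomes, which is why the proteasome inhibitor bortezomib is used against this disease. Elesclomol carries copper into mitochondria. Much of NRF1's regulation acts on the protein, which RNA levels do not show.

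The samples were bone marrow from the femurs of SCID-beige mice that had received 3000000 MM.1S cells, a human myeloma cell line marked with gfp and luc, by intravenous injection. One group received bortezomib at 0.25 mg/kg intraperitoneally each week, one elesclomol at 25 mg/kg subcutaneously on every 3rd day of the week, one the combination of both, and one the delayed combination, in which elesclomol began 14 days after inclusion. The PBS group received intravenous saline weekly. Each group had 5 treated mice, of which 3 tumours were sequenced, and mice were followed until limb paralysis or severe toxicity. All tumours came from 1 cell line in immunodeficient hosts.

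Totals ran from 4500326 to 13161087 counts per library, and were highest in the delayed combination group at 11060930 to 13161087. The 10 myeloma markers summed to 13600 to 16900 CPM (counts scaled to a common library size) in the 15 libraries. Host lists were low but uneven. Erythroid markers summed to 29.5 to 336 CPM and granulocyte markers to 8.82 to 124 CPM in elesclomol libraries, against 21.2 to 32.9 and 12.1 to 25 CPM with PBS. Granulocyte markers lay below PBS in the delayed combination, at 4.94 to 6.01 CPM. They spread over 2.99 to 24.7 CPM with bortezomib and 1.77 to 29.2 CPM with the combination. Stromal and bone markers summed to 133 to 241 CPM in the delayed combination and 129 to 202 CPM in elesclomol libraries, against 105 to 134 CPM with PBS. Their sums were 124 to 156 CPM with bortezomib and 113 to 157 CPM with the combination. The host marker level, a mean log2 CPM over 18 host genes, was 3.92, 2.07 and 2.72 in elesclomol replicates 1 to 3, against 2.04 to 2.18 with PBS. Replicate 1 of bortezomib, replicate 1 of the combination and replicate 2 of the delayed combination stood apart: their deviations from the mean library correlated with the genes' GC content across genes at 0.51, 0.49 and 0.32. The PBS libraries lay at −0.35 to −0.29 on the same scale. Fewer cells of a type and less RNA per cell cannot be told apart in such bulk samples.

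Promoters are shown here because NRF1 acts on an antioxidant response element with the core TGACNNNGC, often followed by A. RefSeq promoter sequences (GRCh38.p14, 250 bases before to 50 after the start) were at hand for 11 of the 13 genes, namely DDI2, RPS27A, NGLY1, VCP, UBQLN1, RAD23B, UBB, NFE2L1, NPLOC4, NSFL1C and UBQLN2. The NPLOC4 sequences (chr17:81577384-81577683 and chr17:81566553-81566852) lie inside that gene, which is annotated on the minus strand at 81556887 to 81648465. The NSFL1C sequence (chr20:1466800-1467099) lies inside its gene too, annotated on the minus strand at 1442162 to 1473842. Those of VCP and UBB also lie inside their genes, nearer to the annotated starts at 35073249 and 16380798. The regions before the annotated starts of these genes were thus not searched, although NPLOC4, NSFL1C, VCP and UBB count among the 11 here and below. The core was searched on both strands. It was found in 13.3% of all 35116 promoters. VCP, UBQLN1, UBB and UBQLN2 held it, which is 4 of 11 genes, against 14 of 37 proteasome genes with a promoter and 16.1% of all genes with one. The longer form TGACNNNGCA was found in 9 of 37 proteasome genes and in 0 of the 11, against 3.94% of all genes with a promoter (3.18% of all promoters). A match describes letters and is not a binding site. The matches in the 4 genes, with up to 14 bases on each side, read in the direction of the gene and with the core in capitals, are:
VCP, chr9:35072792-35072828, minus strand: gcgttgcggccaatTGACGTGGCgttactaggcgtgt
UBQLN1, chr9:83708012-83708048, minus strand: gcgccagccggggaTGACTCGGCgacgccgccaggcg
UBB, chr17:16381297-16381333, plus strand: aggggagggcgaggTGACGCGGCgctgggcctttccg
UBQLN2, chrX:56563467-56563503, plus strand: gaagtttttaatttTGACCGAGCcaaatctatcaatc
UBQLN2, chrX:56563500-56563536, plus strand, core on the opposite strand: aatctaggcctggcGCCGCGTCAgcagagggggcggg

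For comparison, 3 of the 9 proteasome genes with the longer form, which contains the shorter, are shown with it in capitals. PSMC5 is an ATPase of the base, PSMD12 a lid subunit and PSMA4 a core ring subunit.
PSMC5, chr17:63827649-63827686, plus strand, element on the opposite strand: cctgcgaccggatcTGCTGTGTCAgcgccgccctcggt
PSMD12, chr17:67366719-67366756, minus strand: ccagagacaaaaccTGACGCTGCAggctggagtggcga
PSMA4, chr15:78540646-78540683, plus strand: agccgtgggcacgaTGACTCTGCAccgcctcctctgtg

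The promoters of NFE2L1 and VCP share another feature, noticed after the sequences were seen: a promoter of each holds 5 CCAAT boxes, counted on both strands, as do 126 of the 35116 promoters (0.359%) at 5 or more. CCAAT boxes are bound by the factor NF-Y. A single CCAAT or more was found in 34.6% of all promoters. In both sequences the capitals mark CCAAT or its complement ATTGG, and in VCP also the response element core, which directly follows the third box.
NFE2L1, chr17:48048109-48048408, plus strand: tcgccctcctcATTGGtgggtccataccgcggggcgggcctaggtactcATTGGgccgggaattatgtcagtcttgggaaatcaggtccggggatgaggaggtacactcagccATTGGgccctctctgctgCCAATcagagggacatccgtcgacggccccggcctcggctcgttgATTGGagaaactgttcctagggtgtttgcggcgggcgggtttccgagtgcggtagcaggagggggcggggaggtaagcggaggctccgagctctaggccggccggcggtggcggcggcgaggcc
VCP, chr9:35072576-35072875, minus strand: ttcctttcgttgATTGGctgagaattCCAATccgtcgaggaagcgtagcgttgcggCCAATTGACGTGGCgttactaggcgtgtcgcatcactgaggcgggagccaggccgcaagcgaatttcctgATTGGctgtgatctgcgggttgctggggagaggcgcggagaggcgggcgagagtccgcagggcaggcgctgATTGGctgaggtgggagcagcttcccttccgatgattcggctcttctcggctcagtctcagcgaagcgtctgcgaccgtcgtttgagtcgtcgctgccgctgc

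None of the 13 genes passed the test in any comparison of treatments. With edgeR and Benjamini-Hochberg adjustment over 13085 genes, 0 of 13 had an adjusted p under 0.05 in each of 9 comparisons, and the smallest adjusted p was 0.298, for UBQLN2 in the delayed combination. DESeq2 also called 0 of 13 in each. The limma voom fit with quality weights called 2 in bortezomib against PBS and 1 in the delayed combination against PBS, named below, and 0 in the other 7 comparisons. Of all tested genes that fit called 5.48% for bortezomib, 0.39% for elesclomol, 10.8% for the combination and 1.2% for the delayed combination against PBS. It called 0.298% for the combination and 0.0306% for the delayed combination against bortezomib, 1.37% for the combination against elesclomol, 0% for the delayed combination against the combination and 2.19% for the interaction. Few genes of any kind were called by edgeR: 0% in bortezomib, combination and delayed combination against PBS, 0.0688% in elesclomol against PBS, and 0.00764% for the interaction, the extra change of the combination beyond the sum of the single agents. The share was also 0% in the comparisons of combination against bortezomib, delayed combination against bortezomib, combination against elesclomol and delayed combination against combination.

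The width of the intervals shows how closely each change was estimated, while their ends, given with single genes below, can lie further from 0. The 95% confidence interval of a log2 change against PBS reached 0.20 to 0.37 to either side of the estimate over the 13 genes, which is 1.15 to 1.29-fold. The largest of the 52 estimates against PBS, UBQLN2 in the delayed combination, was 1.38-fold. At an unadjusted p under 0.05, edgeR gave 3 of 13 genes for bortezomib (23.1%, against 10.6% of all tested genes), 3 for elesclomol (23.1%, against 8.07%), 1 for the combination (7.69%, against 13.6%) and 1 for the delayed combination (7.69%, against 11.1%).

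**Figure D1:**
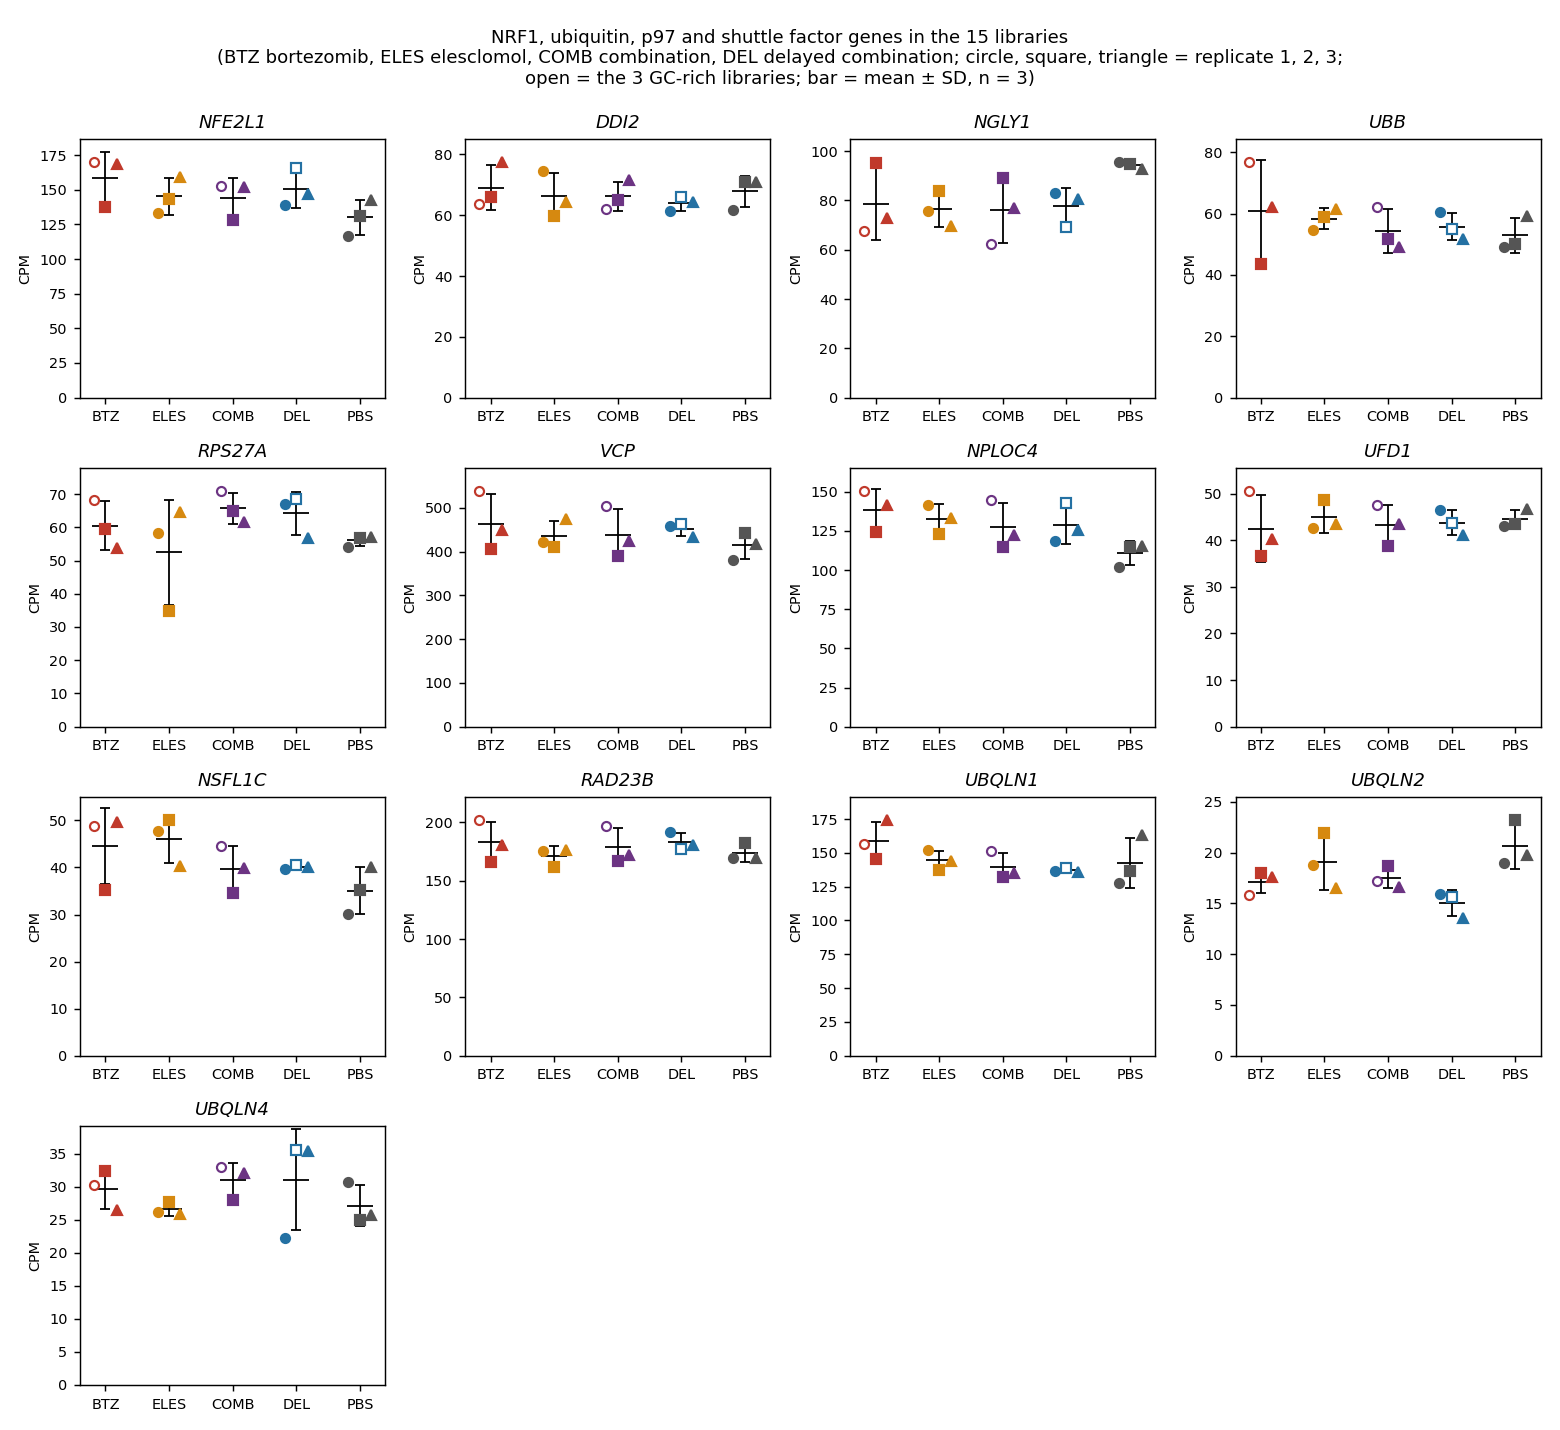
Level of each of the 13 genes in the 15 libraries in CPM, with the treatment groups left of PBS, points for replicates 1 to 3, and bars for the mean ± SD (n = 3). The groups lie close together: NPLOC4 averaged 139 CPM with bortezomib and 111 CPM with PBS, and RPS27A shows 1 low elesclomol library at 34.7 CPM.

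NFE2L1 itself stood somewhat higher in each treated group than in PBS tumours, within the spread of single libraries. It was at 169.9, 138 and 169 CPM with bortezomib, 133, 143 and 159 CPM with elesclomol, and 153, 128 and 152 CPM with the combination. The delayed combination had 139, 166 and 147 CPM, and PBS 117, 131 and 142 CPM. Bortezomib tumours held the highest mean of the 5 groups and PBS tumours the lowest, and each group overlapped the next in that order. The log2 change against PBS was 0.29 ± 0.12 (SE) for bortezomib (95% interval 0.03 to 0.54, edgeR adjusted p = 0.457), 0.16 ± 0.12 for elesclomol, 0.15 ± 0.12 for the combination and 0.21 ± 0.12 for the delayed combination. The limma voom fit called the bortezomib value (0.33 ± 0.09, adjusted p = 0.0486). With levels corrected for GC content and gene length, the values were 0.15 ± 0.10 for bortezomib and −0.0035 ± 0.095 for the combination, where the sign turned, and the part of GC content in the difference was not tested.

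Of the activators, NGLY1, the cytosolic enzyme that strips N-linked sugars, gave lower values in all 4 treated groups. It had 67.6, 95.4 and 72.7 CPM with bortezomib, 75.6, 83.8 and 69.8 CPM with elesclomol, 62.3, 89.0 and 77.1 CPM with the combination and 83.0, 69.2 and 80.7 CPM with the delayed combination. PBS tumours sat tightly at 95.5, 94.95 and 92.8 CPM. The elesclomol, combination and delayed combination libraries all lay below the 3 PBS libraries, while bortezomib replicate 2 did not. The log2 changes were −0.27 ± 0.14, −0.31 ± 0.14, −0.31 ± 0.14 and −0.28 ± 0.14 in the same order of groups, with adjusted p of 0.494, 0.616, 0.36 and 0.462 (edgeR).

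NGLY1 has an AU-rich transcript, with 36.2% GC in its longest annotated transcript, the lowest of the 13. Its level over the 15 libraries followed their GC deviation at r = −0.95, as a description. After correction for GC content and length it stood at 97.3, 82.2 and 74.8 CPM with bortezomib, 98.6, 76.8 and 77.4 CPM with the combination and 77.7, 95.5 and 76.8 CPM with the delayed combination, against 79.5, 79.2 and 76.8 CPM with PBS. The log2 changes then turned to 0.11, 0.10 and 0.08, and that for elesclomol was −0.12 ± 0.12. The highest corrected levels were those of the 3 GC-rich libraries, which were the lowest of the 15 as counted. Without these 3 libraries the uncorrected changes were −0.16 ± 0.12 for bortezomib, −0.30 ± 0.11 for elesclomol, −0.18 ± 0.12 for the combination and −0.20 ± 0.12 for the delayed combination.

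**Figure D2:**
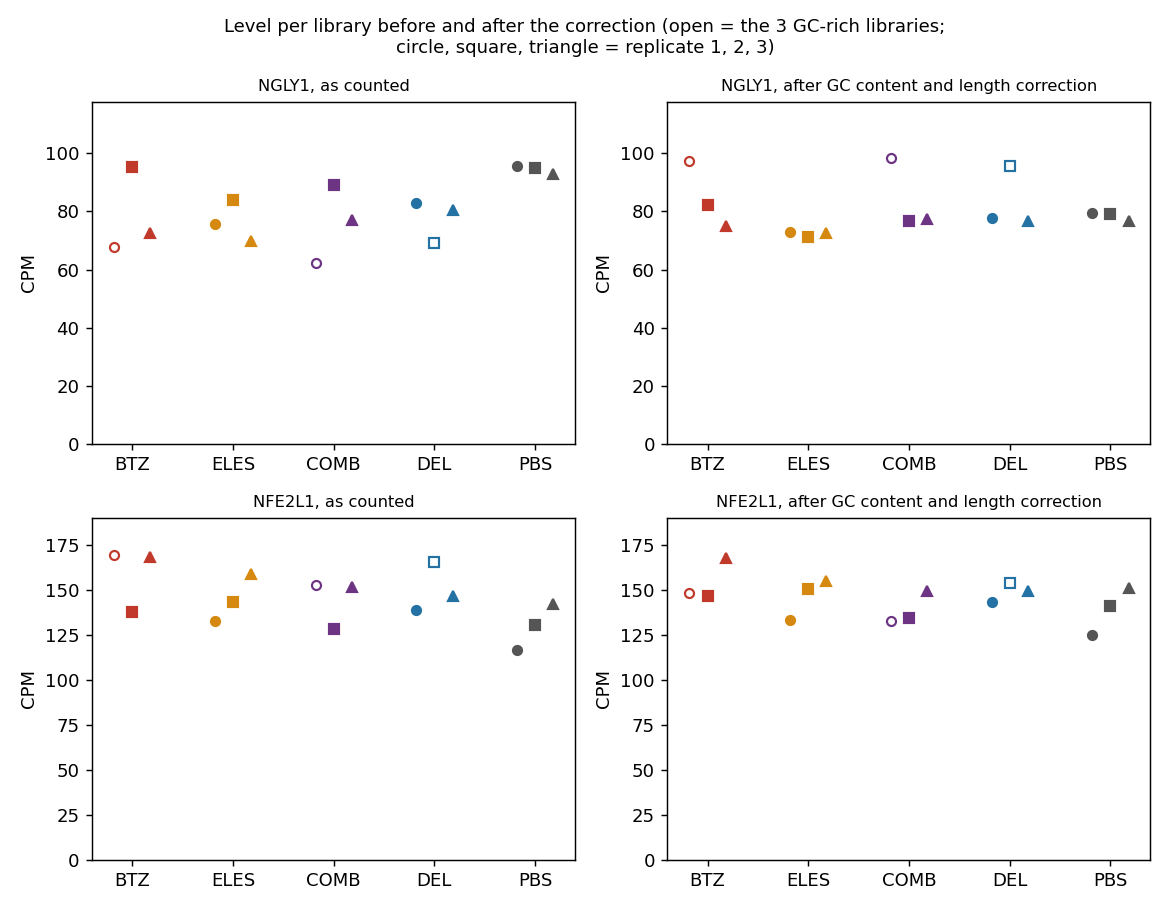
Level of NGLY1 and NFE2L1 per library in CPM as counted (left) and after correction for GC content and gene length (right), treated groups left of PBS, open symbols for the 3 GC-rich libraries. In those libraries NGLY1 lies at 62.3 to 69.2 CPM as counted and at 95.5 to 98.6 CPM corrected.

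DDI2, the protease that cleaves NRF1, varied little between groups, with means of 69.0 ± 7.3 CPM with bortezomib, 66.2 ± 7.5 CPM with elesclomol, 66.2 ± 4.8 CPM with the combination and 63.9 ± 2.5 CPM with the delayed combination, and 67.8 ± 5.2 CPM with PBS (SD, n = 3 each). Its log2 changes against PBS ran from −0.09 to 0.02. The DDI2 gene shares 15.3% of its exon bases with RSC1A1 on the same strand in GENCODE 29, and RSC1A1 had 0 counts. How reads in shared bases were assigned is not given, so that 0 does not tell whether DDI2 lost reads. Other members overlap genes on the opposite strand, which would matter if strand was ignored. The largest such shares were 28.4% for UBB with AC093484.3 (8 counts) and 6.44% for NGLY1 with OXSM (2195 counts, against 9297 for NGLY1).

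UBB encodes a chain of ubiquitin repeats and responds to stress, while RPS27A encodes ubiquitin fused to a ribosomal protein. UBB gave no steady difference. It had 76.7, 43.4 and 62.1 CPM with bortezomib, against 49.2, 50.1 and 59.4 CPM with PBS, so that the bortezomib libraries lay on both sides of the PBS ones. The log2 change was 0.20 ± 0.16, and −0.01 without bortezomib replicate 1, which alone gave the positive sign. The other treated groups averaged 54.3 to 58.3 CPM, against 52.9 CPM with PBS.

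RPS27A was at 58.2, 34.7 and 64.6 CPM with elesclomol, against 54.2, 56.8 and 57.1 CPM with PBS, and its low elesclomol replicate 2 was the lowest of the 15 libraries. Combination libraries held 70.8, 64.8 and 61.7 CPM of RPS27A, all above PBS (0.23 ± 0.17, adjusted p = 0.535).

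Counts of these genes are uncertain in part, because they have processed copies elsewhere in the genome. The files name 5 pseudogenes of UBB with 661 counts in all libraries against 6674 for UBB, and 17 of RPS27A with 888 against 7138. How reads that fit several places were treated is not given in the sources used here.

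VCP, the p97 ATPase that extracts ubiquitinated proteins from membranes and complexes, overlapped PBS in every treated group. It had 538, 407 and 449 CPM with bortezomib, 423, 409.7 and 474 CPM with elesclomol, 504, 390.2 and 423 CPM with the combination and 458, 464 and 433 CPM with the delayed combination, against 382, 444 and 418 CPM with PBS. Bortezomib replicate 1 and combination replicate 1, both GC-rich, were its highest libraries. The log2 changes were 0.16, 0.07, 0.08 and 0.12 in that order of groups, each with an SE of 0.12. Without bortezomib replicate 1 the bortezomib value was 0.04, and without combination replicate 1 the combination value was −0.03. Single other libraries also moved them: the bortezomib value was 0.25 without its replicate 2 and 0.11 without PBS replicate 1, and the combination value was 0.16 without its replicate 2, 0.03 without PBS replicate 1 and 0.14 without PBS replicate 2. The elesclomol value was 0.02 without PBS replicate 1, 0.12 without PBS replicate 2, 0.11 without its own replicate 2 and 0.01 without its replicate 3, and the delayed combination value 0.07 without PBS replicate 1.

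Its cofactors did not move as a unit. NPLOC4, which with UFD1 forms the substrate-loading complex of p97, was at 150.2, 124 and 141 CPM with bortezomib and at 142, 122.9 and 133 CPM with elesclomol, against 102, 115 and 115 CPM with PBS. All 3 libraries of each of these groups, and of the delayed combination with 118, 143 and 125 CPM, lay above PBS; the combination with 145, 115 and 122 CPM overlapped it. The log2 changes against PBS were 0.32 ± 0.11 for bortezomib (95% interval 0.08 to 0.56, edgeR adjusted p = 0.449), 0.26 ± 0.11 for elesclomol (adjusted p = 0.601), 0.20 ± 0.11 for the combination and 0.22 ± 0.11 for the delayed combination. The limma voom fit called the bortezomib value (0.33 ± 0.08, adjusted p = 0.033). It was 0.25 ± 0.09 after the GC content and length correction, and 0.26 ± 0.11 without the 3 GC-rich libraries.

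UFD1, NPLOC4's partner, had means of 42.5 ± 7.2 CPM with bortezomib, 44.9 ± 3.3 CPM with elesclomol, 43.3 ± 4.4 CPM with the combination and 43.8 ± 2.7 CPM with the delayed combination, against 44.5 ± 2.0 CPM with PBS (SD, n = 3 each), and no log2 change beyond −0.06. NSFL1C, also called p47, is the cofactor of p97 in membrane fusion. It was at 48.9, 35.2 and 49.7 CPM with bortezomib and at 47.7, 49.97 and 40.3 CPM with elesclomol, against 30.02, 35.2 and 39.98 CPM with PBS. The elesclomol libraries exceeded PBS by a narrow margin (0.39 ± 0.15, edgeR adjusted p = 0.527), and bortezomib overlapped it (0.34 ± 0.15, adjusted p = 0.458).

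For NSFL1C and NPLOC4 the estimate for the combination was below the sum of those for the single agents. NSFL1C had 44.5, 34.6 and 39.8 CPM with the combination, an interaction of −0.55 ± 0.21 (95% interval −0.99 to −0.12, edgeR adjusted p = 0.471), and NPLOC4 gave −0.38 ± 0.16 (adjusted p = 0.511). Neither passed the test. NFE2L1 gave −0.30 ± 0.17 (adjusted p = 0.656). The interaction was negative for 8 of the 13 genes, with a median of −0.02, beside 6730 of 13085 genes and a median of −0.01 over all tested genes.

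**Figure D3:**
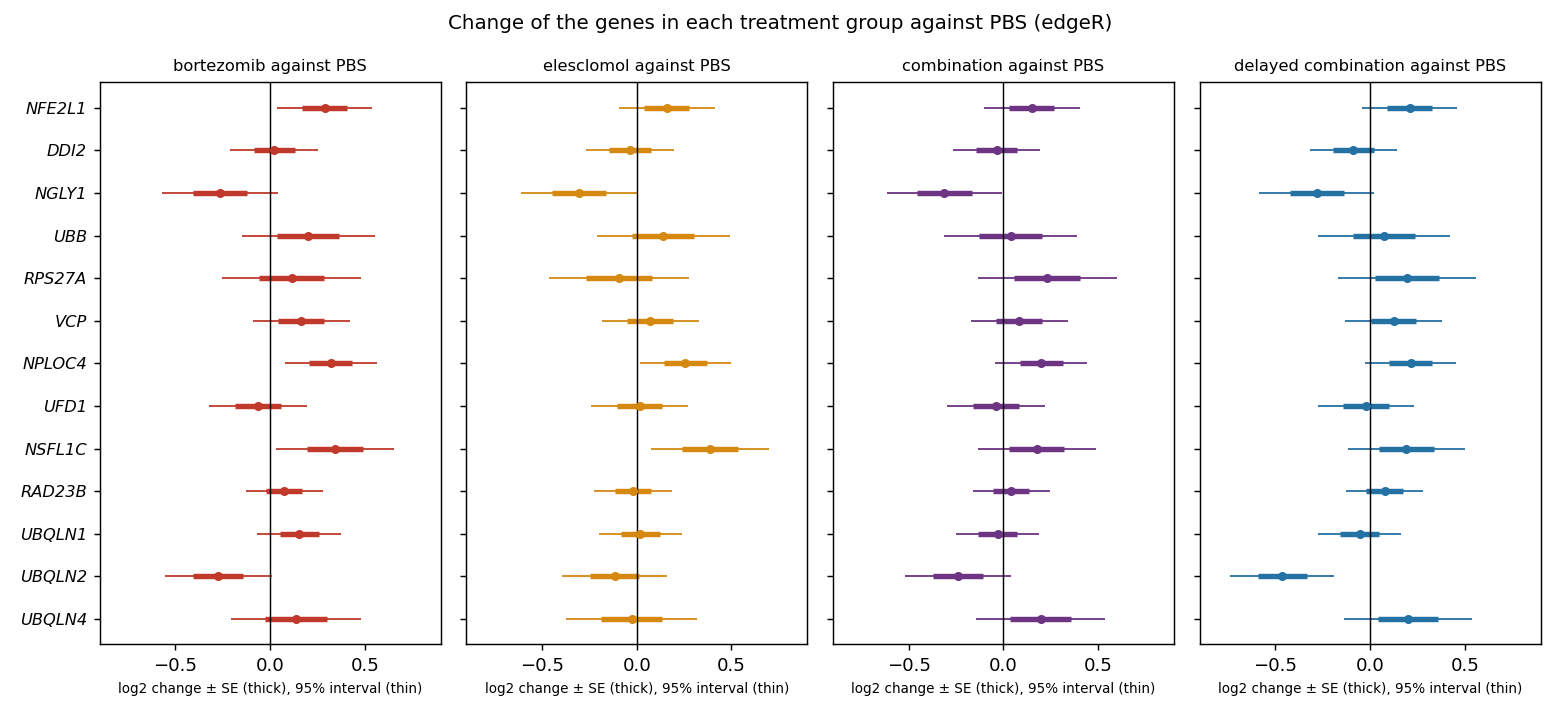
Log2 change of the 13 genes in each treatment group against PBS from edgeR, with thick bars for the SE and thin bars for the 95% confidence interval. No point lies beyond 0.46 in size, NPLOC4 and NSFL1C lie right of 0 in all 4 panels, and NGLY1 and UBQLN2 left of it.

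Among the shuttle factors, UBQLN2 gave the lowest adjusted p of the whole set. This ubiquilin binds ubiquitin at 1 end and the proteasome at the other, and is mutated in a form of motor neuron disease. It was at 15.9, 15.6 and 13.5 CPM in the delayed combination and 17.2, 18.6 and 16.7 CPM in the combination, against 19.0, 23.2 and 19.7 CPM with PBS. Bortezomib tumours had 15.9, 17.98 and 17.6 CPM and elesclomol tumours 18.7, 22.0 and 16.6 CPM, so the groups other than elesclomol lay entirely below PBS. The log2 changes were −0.46 ± 0.13 for the delayed combination (95% interval −0.74 to −0.19, edgeR adjusted p = 0.298), −0.24 ± 0.13 for the combination and −0.27 ± 0.13 for bortezomib. The limma voom fit called the delayed combination (−0.53 ± 0.11, adjusted p = 0.0423), and the GC content and length correction gave −0.48 ± 0.13.

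UBQLN1, a close relative of UBQLN2, did not follow it: it averaged 159 ± 14.5 CPM with bortezomib and 137 ± 1.6 CPM with the delayed combination, against 143 ± 18.2 CPM with PBS (SD, n = 3 each). UBQLN4 had 22.3, 35.6 and 35.3 CPM in the delayed combination, against 30.7, 25.0 and 25.8 CPM with PBS, and the groups overlapped. RAD23B, a shuttle factor that also serves DNA repair, had group means of 171 to 183 CPM in the treated groups, against 174 CPM with PBS, and log2 changes of −0.02 to 0.08.

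Between treated groups, RPS27A in the combination against elesclomol gave a log2 change of 0.32 ± 0.17 (edgeR adjusted p = 0.463), and 0.10 without the low elesclomol replicate 2 and 0.50 without elesclomol replicate 3. UBQLN2 in the delayed combination against the combination gave −0.22 ± 0.13 (adjusted p = 1), and UBQLN1 in the delayed combination against bortezomib −0.21 ± 0.10 (adjusted p = 1). NFE2L1 gave −0.14 ± 0.12 in the combination and −0.08 ± 0.12 in the delayed combination, both against bortezomib, and −0.01 ± 0.12 in the combination against elesclomol. None of these passed the test.

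Across the set, libraries that did not overlap between a treatment and PBS were counted as a description. With bortezomib 2 of 13 genes did not overlap, NPLOC4 above and UBQLN2 below, against 20.2% of all tested genes. With elesclomol 3 did not, with NPLOC4 and NSFL1C above and NGLY1 below, against 19.8%. With the combination 3 did not, with RPS27A above and NGLY1 and UBQLN2 below, against 22.2%. With the delayed combination 3 did not, with NPLOC4 above and NGLY1 and UBQLN2 below, against 27.5%. These counts are near the shares of all genes.

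Levels between genes were compared per length of transcript in PBS tumours. VCP led by either measure of length, at 76.2 CPM per kilobase over the union of its exons and 94.8 CPM per kilobase over its longest principal transcript. RAD23B had 37.6 and 42.2, UBB 32.6 and 43.2, and RPS27A 17.9 and 52.3 CPM per kilobase by the same lengths, so that their order changed with the length used. NFE2L1 stood at 22.3 and 27.3 CPM per kilobase, well under VCP. UBQLN2 was the lowest of the 13 by both, at 4.87 CPM per kilobase.

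The proteasome genes are the known targets of NRF1. Of 43 listed genes of its subunits and assembly factors 42 were tested, and 0 were called by edgeR in any comparison with PBS. At an unadjusted p under 0.05, 8, 1, 3 and 7 of them were higher with bortezomib, elesclomol, the combination and the delayed combination, and 0 lower. These are 19%, 2.38%, 7.14% and 16.7% of the 42, beside 10.6%, 8.07%, 13.6% and 11.1% of all tested genes in either direction, so that the shares for elesclomol and the combination lay below those of all genes. Most estimates lay above 0: 34, 28, 28 and 34 of 42, with median log2 changes of 0.17, 0.06, 0.12 and 0.13 in the same order. The 3 GC-rich libraries held the 3 highest mean log2 levels of the 42 genes. The mean was 5.88, 5.70 and 5.78 with bortezomib, 5.69, 5.71 and 5.72 with elesclomol, 5.89, 5.58 and 5.69 with the combination and 5.72, 5.87 and 5.70 with the delayed combination, against 5.58, 5.65 and 5.67 with PBS. Bortezomib and elesclomol libraries all lay above PBS, and so did those of the delayed combination, while combination replicate 2 did not. Without the 3 GC-rich libraries 34, 29, 25 and 32 of 42 lay above 0, with medians of 0.12, 0.07, 0.05 and 0.09. The medians were 0.16, 0.09, 0.10 and 0.13 with the GC content and length correction, and the part of these libraries in the levels was not tested. As counted in all libraries, of the 13 genes 10, 7, 8 and 8 lay above 0, with medians of 0.14, 0.01, 0.04 and 0.08, beside 52.6%, 50.7%, 51.7% and 51.3% of all tested genes and medians of 0.02, 0.00, 0.01 and 0.01. The 4 treatments share the PBS libraries, so these are not separate observations.

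ADRM1, a ubiquitin receptor of the proteasome, was among the 3 proteasome genes with the smallest p in all 4 comparisons. It averaged 108 CPM with bortezomib, 98.3 CPM with elesclomol, 101 CPM with the combination and 107 CPM with the delayed combination, against 80.8 CPM with PBS. Its log2 changes were 0.41 ± 0.12, 0.28 ± 0.12, 0.32 ± 0.12 and 0.40 ± 0.12, with edgeR adjusted p of 0.419, 0.589, 0.316 and 0.33. PSMB4, a core subunit, gave 0.39 ± 0.14 with the combination (adjusted p = 0.299) and 0.40 ± 0.14 with the delayed combination (adjusted p = 0.395). PSMB2, another core subunit, gave 0.47 ± 0.16 with bortezomib (adjusted p = 0.427). PSMC5 gave 0.36 ± 0.18 with elesclomol (adjusted p = 0.649).

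**Figure D4:**
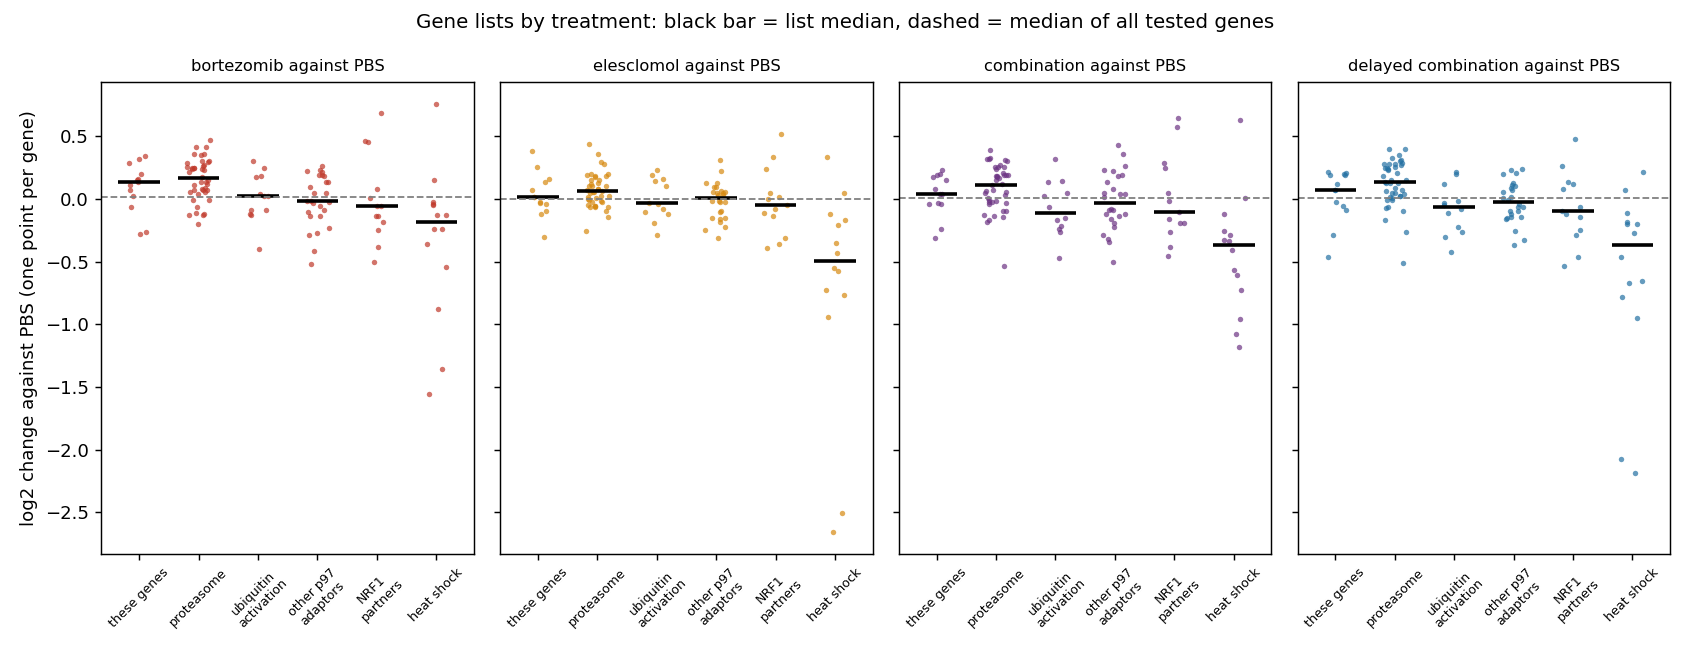
Log2 change against PBS of each gene in 6 lists for the 4 treatments, with a black bar at each list's median and a dashed line at the median of all 13085 tested genes. The medians of the 13 genes and of the proteasome genes lie above the dashed line in each panel, and the heat shock median lies below it, down to −0.49 with elesclomol.

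Other lists around this pathway were fixed by name too, and 0 of their genes were called by edgeR in any comparison with PBS. Of 26 other p97 adaptors 12, 13, 13 and 12 lay above 0 for bortezomib, elesclomol, the combination and the delayed combination, with medians of −0.01, 0.01, −0.03 and −0.02. SVIP, a small inhibitor of p97 in protein breakdown at the endoplasmic reticulum, had the largest of their changes that reached an unadjusted p under 0.05, at −0.52 ± 0.21 with bortezomib (adjusted p = 0.455) and −0.50 ± 0.21 with the combination (adjusted p = 0.337). DERL2, a derlin of the same membrane machinery, gave 0.36 ± 0.11 with the combination (adjusted p = 0.28). Of 12 genes of ubiquitin activation and recycling 7, 5, 5 and 3 lay above 0; UBA1, the main ubiquitin-activating enzyme, gave 0.30 ± 0.12 with bortezomib (adjusted p = 0.449) and 0.32 ± 0.12 with the combination (adjusted p = 0.297).

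Of 13 partners and regulators of NRF1, 5 lay above 0 in each comparison with PBS. SYVN1, also called HRD1, is the ubiquitin ligase that directs NRF1 to breakdown. It averaged 111 CPM with bortezomib, 103 CPM with elesclomol, 121 CPM with the combination and 97.7 CPM with the delayed combination, against 81.5 CPM with PBS. Its log2 changes were 0.45 ± 0.12, 0.34 ± 0.12, 0.58 ± 0.12 and 0.26 ± 0.12, with edgeR adjusted p of 0.419, 0.485, 0.158 and 0.444. NFE2L2, the related factor NRF2 of the oxidative stress response, gave −0.31 ± 0.10 with elesclomol (adjusted p = 0.446), −0.39 ± 0.10 with the combination (adjusted p = 0.204) and −0.29 ± 0.10 with the delayed combination (adjusted p = 0.384). HCFC1, also in this list, gave 0.46 ± 0.15 with bortezomib (adjusted p = 0.419) and 0.52 ± 0.15 with elesclomol (adjusted p = 0.356). It gave 0.25 ± 0.15 with the combination and 0.12 ± 0.15 with the delayed combination. Its interaction was −0.74 ± 0.21 (edgeR adjusted p = 0.367). None of these genes passed the test.

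Heat shock genes, which like UBB answer to misfolded protein, gave lower values: 12 of 14 lay below 0 in each of the 4 comparisons with PBS, with medians of −0.18, −0.49, −0.37 and −0.36, and 0 were called by edgeR. HSP90AA1, an inducible chaperone, averaged 71.0 CPM with the combination and 73.8 CPM with the delayed combination, against 117 CPM with PBS, with log2 changes of −0.72 ± 0.15 (adjusted p = 0.158) and −0.67 ± 0.15 (adjusted p = 0.213). HSPA8, the constitutive chaperone, gave −0.55 ± 0.13 with elesclomol (adjusted p = 0.217). BAG3, a partner of HSP70 in autophagy, gave 0.76 ± 0.24 with bortezomib (adjusted p = 0.419), against the direction of the list. HSPA1A and HSPA1B, also in the list, are near-identical copies whose counts are uncertain. The palindrome GAANNTTC of the heat shock element was found in 10 of 14 heat shock gene promoters, in 0 of the 11 genes with promoters at hand and in 8.21% of all genes with a promoter (6.77% of all promoters).

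Finally, the 13 genes were compared with the mean log2 level of the 42 proteasome genes from library to library. Over the 12 libraries without the 3 GC-rich ones, which stand apart at the top of that mean, NFE2L1 followed it at Pearson's r = 0.871 (permutation p = 0.00029, Benjamini-Hochberg adjusted over the 13 relations 0.00377) and Spearman's rho = 0.804 (p = 0.00257, adjusted 0.0334, two-sided permutation tests with 100000 draws). Without the 2 libraries farthest from NFE2L1's median r was 0.686. These permutations exchange libraries across groups and take no account of a possible pairing of bortezomib and combination replicates, which no label gives. With libraries exchanged within their group alone, a test added after the relation was seen, the deviations of NFE2L1 from the group means gave r = 0.893 over the 12 libraries (exact permutation p = 0.0174 over 288 rearrangements, adjusted 0.181), and none of the 13 relations passed. So few rearrangements set a floor to p that leaves little room under the adjusted threshold. Not passing over the 12 libraries therefore does not decide whether a relation exists. Over all 15 libraries the same within-group test gave NFE2L1 r = 0.759 (exact permutation p = 0.00231 over 7776 rearrangements, adjusted 0.0092), with the 3 GC-rich libraries among them. NFE2L1 was not alone there: NGLY1 (r = −0.873), NPLOC4 (0.87) and VCP (0.831) had the same adjusted exact permutation p. UFD1 (0.711) and NSFL1C (0.645) had an adjusted exact permutation p of 0.0479. After the GC content and length correction the r of NFE2L1 with the proteasome mean was 0.774 over the 12 libraries and 0.331 over the 15.

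Over the same 12 libraries NPLOC4 gave r = 0.78 (permutation p = 0.00299, adjusted 0.0133), NSFL1C r = 0.777 (adjusted 0.0133) and VCP r = 0.71 (adjusted 0.0305), and NGLY1 ran the other way at r = −0.655 (adjusted 0.0486). Spearman's rho was 0.706, 0.65, 0.664 and −0.65 for these genes, each with an adjusted permutation p of 0.0681. On uncorrected levels, with libraries exchanged across groups, NFE2L1 alone of the set had an adjusted p under 0.05 by both measures. With libraries exchanged within groups, none passed over these 12 libraries, where few rearrangements left little room, while those named above passed over the 15. These permutations take libraries as exchangeable and compare with no relation at all, while the libraries share a GC deviation. How many of all tested genes follow the proteasome mean as closely was not counted, so passing does not set NFE2L1 apart from them. After the GC content and length correction r over the 12 libraries was 0.914 for NPLOC4, 0.803 for NSFL1C, 0.53 for VCP and −0.47 for NGLY1, and over the 15 it was 0.852, 0.523, 0.484 and 0.724, where the direction turned for NGLY1. With corrected levels UBQLN1 exceeded NFE2L1 over both sets, and DDI2 and RAD23B over the 15: UBQLN1 gave 0.863 over the 12 and 0.951 over the 15 libraries, DDI2 0.617 and 0.744, and RAD23B 0.536 and 0.76. The GC deviation of the 15 libraries moved with these levels to unlike degrees. It had r = 0.77 with NFE2L1, 0.84 with VCP, 0.84 with NPLOC4, 0.71 with RAD23B and −0.95 with NGLY1. With NSFL1C r was 0.53, with UBQLN1 0.34 and with DDI2 −0.05. The part of the GC deviation in the relations was not tested. The host marker level had r = 0.01 with NFE2L1 and r = −0.18 with VCP.

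**Figure D5:**
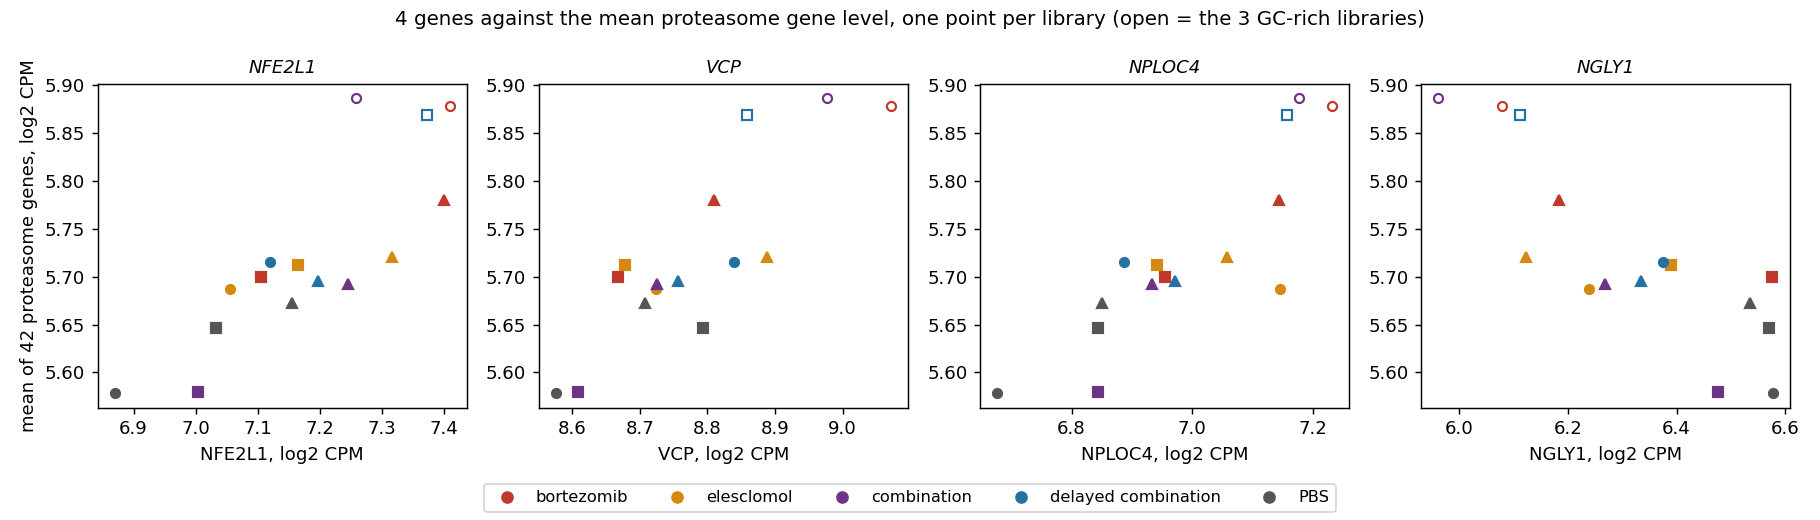
Mean log2 CPM of 42 proteasome genes against the log2 CPM of NFE2L1, VCP, NPLOC4 and NGLY1, with 1 point per library, colours for the groups and open symbols for the 3 GC-rich libraries. Libraries with a higher mean lie at higher NFE2L1, VCP and NPLOC4 and at lower NGLY1, and the open symbols sit at the top in each panel.

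The genes most alike in level over the 15 libraries, among 4586 whose mean log2 CPM reached 5, were SLC7A5 (r = 0.91), NAA38 (0.91), VDAC1 (0.89) and HNRNPF (0.89) for NFE2L1. For VCP they were DDB1 (r = 0.96), MTA2 (0.95), IFRD2 (0.94) and RNF187 (0.94), and for UBB H2AFX (r = 0.93), E2F1 (0.91), UBE2L6 (0.91) and MYBL2 (0.91). These are descriptions over libraries that share the GC deviation, with which the 12 genes themselves correlated at 0.55 to 0.91.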

How the data were processed

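Total RNA from 15 bone marrow samples, 3 in each of 5 groups, was sequenced after ribosomal RNA depletion with a stranded kit, per the labels' protocols. The authors deposited raw read counts per gene; the submitters' processing notes name STAR 2.5.4b, featureCounts 1.6.1 and the build GRCh37. No source used here gives the strand setting, the annotation release or the handling of mouse reads. Symbols, exon lengths and overlaps came from GENCODE 29, and 52338 of 57773 identifiers matched.

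Differences were tested with edgeR 4.0.16 in R 4.3.3 (quasi-likelihood F test, robust, TMM factors, filterByExpr with a minimum count of 10) in 1 model of all 15 libraries over 13085 genes. The threshold was a Benjamini-Hochberg adjusted p under 0.05, and the common biological variation (BCV) was 0.171. CPM use TMM-scaled library sizes, and log2 levels a prior count of 2. DESeq2 1.42.0, limma 3.58.1 and the other settings were alternatives, among them a loess correction for GC content and exon length (span 0.3), which had values for 97.8% of tested genes. The edgeR fit was tested on simulated data. Permutations and sequence searches used Python 3.11.15 with numpy 2.4.6 and plots matplotlib 3.10.9.

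Groups came from the sample titles. No label says that replicates shared a batch; libraries of a group differed by more than sampling noise, and p-values measure the spread between these samples. Same-numbered libraries deviated together for bortezomib and the combination (correlations 0.655, 0.523 and 0.118), and a fit with the replicate number as a block was run on that ground. It called 0 of the 13 genes. No label gives such a pairing. The same-numbered libraries also had like GC deviations (0.51 and 0.49, −0.31 and −0.25, 0.08 and 0.08). Combination replicate 1 and delayed combination replicate 2, both GC-rich, correlated at 0.473 without sharing a number. Whether the numbers pair the libraries was not tested. The 8 genes named first were completed by role, and 13 are given; some genes of these roles are not reported here. The members, gene lists and tests were chosen with earlier results of these data known. Of other lists, up to 3 genes with the smallest p per comparison could be named, and for likeness the 4 genes with the highest r.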

Additional observations from a re-analysis of the deposited data

How the results depend on the processing

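The 13 genes were refitted under 8 other settings and without each of the 15 libraries. None of the 13 was called except by limma voom (2 for bortezomib, 1 for the delayed combination), and the smallest adjusted p elsewhere was 0.126. The sign turned in 20 of 117 values under the GC content and length correction and in 16 of 117 without the 3 GC-rich libraries. Among values more than 1 SE from 0 as reported, it turned for NGLY1 under that correction (0.11 with bortezomib, 0.099 with the combination, 0.083 with the delayed combination), for NFE2L1 in the combination (−0.0035), and for UBB with bortezomib (−0.0078 without the 3 GC-rich libraries, and −0.0078 to 0.39 over the fits that leave out 1 library). Without bortezomib replicate 1, combination against bortezomib also turned for UBB (range −0.36 to 0.046). The cause was not tested.

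Counts of all called genes depended on the setting. In the order bortezomib, elesclomol, combination and delayed combination against PBS, combination and delayed combination against bortezomib, combination against elesclomol, and interaction, edgeR called 0, 9, 0, 0, 0, 0, 0 and 1. DESeq2 called 9, 49, 51, 46, 1, 8, 53 and 32, limma voom 717, 51, 1407, 157, 39, 4, 179 and 286, edgeR with no filter 76, 129, 211, 193, 14, 25, 291 and 127, and edgeR without the 3 GC-rich libraries 9, 47, 9, 3, 4, 2, 9 and 46. No filter gave 1 for delayed combination against combination. The GC correction gave 3 in the combination, 4 in the delayed combination and 3 for the interaction, and host markers as a covariate 2 for elesclomol and 0 for the interaction. A replicate block gave 2 in the combination, 3 in the delayed combination, 1 for combination against elesclomol and 2 for the interaction; with bortezomib and combination libraries alone, added after seeing the data, it gave 5 genes and 0 of the 13. Without 1 library the ranges were 0 to 3 for bortezomib, 1 to 22 for elesclomol, 0 to 6 for the combination, 0 to 49 for the delayed combination, 0 to 6 for delayed combination against bortezomib, 0 to 30 for combination against elesclomol and 0 to 27 for the interaction. Libraries that moved the elesclomol count were PBS 1 (5), PBS 2 (4), PBS 3 (1), elesclomol 1 (4), elesclomol 3 (1), bortezomib 1 (22), bortezomib 2 (14), combination 1 (15) and combination 2 (14). Delayed combination 1 gave the top values for the delayed combination (49), for it against bortezomib (6) and for combination against elesclomol (30), combination 2 that for the combination (6), and bortezomib 1 those for bortezomib (3) and the interaction (27). With 3 libraries a group, the unadjusted 95% intervals of changes against PBS reached 1.15 to 1.29-fold to either side, depending on the gene. An estimate smaller than that reach for its own gene could not be told from 0. At the adjusted threshold even the largest estimate against PBS, 1.38-fold for UBQLN2 in the delayed combination, did not pass (edgeR adjusted p = 0.298).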
